A study of Homo sapiens with 75 samples.

Results

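The SR splicing factor family was followed through 75 oligonucleotide arrays of 5 human cell lines. Of 10 named genes, SRSF1, SRSF3, SRSF4, SRSF5, SRSF6, SRSF7, SRSF10 and SRSF11 were measured by probe sets that carry no other gene symbol, so 8 of the 19775 genes of the array were members with a value. They held 37 of its 54675 probe sets, and each gene is read through its brightest probe set, by the mean of the 75 arrays. SRSF2 and SRSF9 share all their probe sets with a neighbouring gene and were not analysed here. The family was selected on the measured values of SRSF7, which moved between 3 h and 6 h after irradiation in TK6, so that change is described without a test.

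The lines, named here as labelled, were G361, a melanoma line, HepG2, a liver tumour line, TK6, a B-lymphoblastoid line, U2OS, an osteosarcoma line, and BJ, a foreskin fibroblast strain. Each line had 5 groups of 3 arrays: untreated cells at 0 h, 3 h and 6 h, and cells given 5 Gy of ionizing radiation (IR) and collected at 3 h and 6 h. Controls were mock-irradiated, and every line was kept in DMEM with FCS. The labels do not say that the 3 arrays of a group came from different cultures. P-values therefore reflect only how far these arrays scatter, and that scatter may be technical. Values are log2 RMA intensities, and 1 unit is a doubling.

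SR proteins join an RNA recognition motif to a tail rich in arginine and serine. They bind exonic enhancers, recruit the spliceosome to weak splice sites, and several of them also carry spliced mRNA to the cytoplasm. SRPK and CLK kinases phosphorylate the tail and thereby set where the proteins reside and how they act. Many SR transcripts hold a poison exon whose inclusion sends the message to nonsense-mediated decay, so a gene can give several RNA forms that different probe sets may read differently.

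The promoters of the 4 members on which the results turn are printed from RefSeq (GRCh38.p14), each from 250 bases before to 50 bases after the gene's annotated start, 5′ to 3′ on the gene's strand. Capitals mark the CCAAT box (CCAAT) and the GC box (GGGCGG) on either strand. SRSF7 lies on chr2:38743599-38751494 (minus strand; window chr2:38751445-38751744), SRSF3 on chr6:36594362-36605600 (plus strand; window chr6:36594112-36594411), SRSF4 on chr1:29147743-29181900 (minus strand; window chr1:29181851-29182150) and SRSF5 on chr14:69767142-69772005 (plus strand; window chr14:69766892-69767191).
SRSF7: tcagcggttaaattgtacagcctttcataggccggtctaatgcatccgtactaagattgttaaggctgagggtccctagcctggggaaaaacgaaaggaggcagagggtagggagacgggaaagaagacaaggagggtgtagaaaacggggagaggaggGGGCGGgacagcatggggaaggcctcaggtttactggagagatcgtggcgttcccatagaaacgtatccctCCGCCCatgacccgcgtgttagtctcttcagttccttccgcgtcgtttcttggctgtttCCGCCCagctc
SRSF3: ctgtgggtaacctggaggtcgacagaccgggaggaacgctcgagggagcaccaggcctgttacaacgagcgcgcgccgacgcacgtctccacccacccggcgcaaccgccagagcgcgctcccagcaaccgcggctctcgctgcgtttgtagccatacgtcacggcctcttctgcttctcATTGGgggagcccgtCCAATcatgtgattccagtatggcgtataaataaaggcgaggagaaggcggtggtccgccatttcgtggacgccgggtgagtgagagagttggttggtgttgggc
SRSF4: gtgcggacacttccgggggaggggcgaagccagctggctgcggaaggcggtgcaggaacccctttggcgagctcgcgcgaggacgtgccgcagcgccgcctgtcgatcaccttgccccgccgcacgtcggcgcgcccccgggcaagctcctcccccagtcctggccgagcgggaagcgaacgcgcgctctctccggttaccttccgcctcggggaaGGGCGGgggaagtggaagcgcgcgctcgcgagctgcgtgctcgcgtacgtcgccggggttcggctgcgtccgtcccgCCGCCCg
SRSF5: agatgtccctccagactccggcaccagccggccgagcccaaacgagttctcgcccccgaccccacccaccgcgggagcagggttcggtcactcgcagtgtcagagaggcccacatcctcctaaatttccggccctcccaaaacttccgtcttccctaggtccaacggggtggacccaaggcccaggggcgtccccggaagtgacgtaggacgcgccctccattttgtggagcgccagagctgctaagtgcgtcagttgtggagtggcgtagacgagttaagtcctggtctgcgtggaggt

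Promoter windows at the annotated start were found for 9 of the 10 named members, all but SRSF2. GGGCGG occurred in 3 of the 9, those of SRSF4, SRSF6 and SRSF7, and in 44.95% of 35116 promoter windows of the same length. CCAAT occurred in 1, that of SRSF3, which held it 2 times, against 34.6% of all windows. The ETS motif CCGGAAGT occurred in the windows of SRSF4 and SRSF5 and in 4.14% of all, and the CHR element TTTGAA in those of SRSF6 and SRSF11 and in 15.2% of all. The E box CACGTG (7.26% of all windows) and the CRE TGACGTCA (1.85%) matched no member's window. Both strands were searched, no motif contains another, and the motifs were chosen after the data were seen. A match is only a description of the sequence.

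Some arrays stood apart from their labels. Most hepatocyte markers were near background in the arrays labelled HepG2 (ALB 2.91 log2), where only 1 of 7 measured markers was highest in its own line, against 5 of 5 in G361, 4 of 5 in TK6, 1 of 4 in U2OS and 6 of 6 in BJ. That 1 was AFP, at 5.70 in HepG2 and 5.64 in U2OS. The hepatocyte marker SERPINA1 was highest in the arrays labelled U2OS (8.64). Of the osteoblast markers, RUNX2 was highest in HepG2 (9.12, against 8.16 in U2OS) and SPP1 in U2OS (8.87). The 5 G361 replicate 1 arrays had a 5′ minus 3′ GAPDH difference of -0.94 to -0.68, an RNA quality sign that lay between -0.18 and 0.13 in the other 70 arrays. The mean log2 level of a list of p53 targets, set against 0 h in the same line, was 0.80 to 0.85 in the untreated 6 h arrays of HepG2 and 0.07 to 0.91 in those of G361, but 0.00 to 0.17 in HepG2 and -0.02 to 0.22 in G361 arrays labelled as irradiated at 3 h. In G361 untreated 3 h replicate 3 was at 0.77 (the other 2 at 0.12 and 0.17), and untreated 6 h replicate 3 at 0.07 (the other 2 at 0.81 and 0.91). In U2OS untreated 3 h replicate 1 had the lowest upper quartile of all arrays, 5.88 against 5.998 to 6.41 in the other 74. Comparisons within HepG2, G361 and U2OS are therefore given as labelled.

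Before any treatment most members, by their brightest probe set, were highest in TK6 and lowest in BJ. Of the 8 members, 7 were higher in untreated 0 h TK6 cells than the mean of the other 4 lines (limma, Benjamini-Hochberg adjusted p under 0.05), where 29.4% of 16027 genes were called higher. In BJ 6 of 8 were lower, where 35.2% of genes were called lower and the median of all genes was -0.12. SRSF6 and SRSF11 were lowest in U2OS. Through another probe set, SRSF6 (206108_s_at, -0.07) and SRSF11 (213742_at, -0.17) lay below the other lines in TK6. In BJ SRSF3 was 0.28 higher by 232392_at, and SRSF11 was 1.64 higher by 213742_at. SRSF5, which regulates alternative exon choice in many cell types, stood 2.23-fold higher in TK6 (log2 difference 1.16, SE 0.10, adjusted p = 2.13e-16, limma). SRSF7, a splicing factor that also serves as an adaptor for mRNA export, stood 3.06-fold lower in BJ (log2 difference -1.61, SE 0.09, adjusted p = 1.08e-24, limma).

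**Figure D1:**
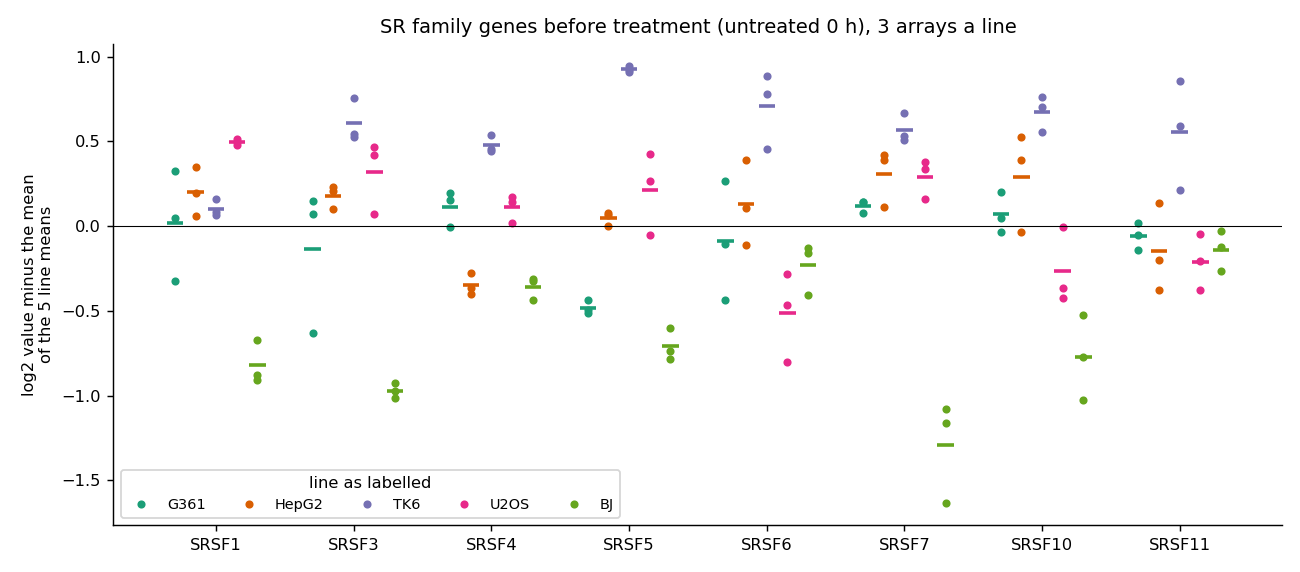
Levels of the 8 measured SR genes in untreated 0 h cells, as log2 value minus the mean of the 5 line means for that gene; points are arrays (3 a line) and bars are line means. TK6 lies above the other lines for 7 genes, and the 3 BJ arrays lie below all other arrays for SRSF1, SRSF3, SRSF5, SRSF7 and SRSF10.

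The 3 BJ arrays held SRSF7 at 9.88, 10.43 and 10.35, while the 12 arrays of the other lines lay between 11.59 and 12.18. TK6 (12.18, 12.01 and 12.04) was above HepG2 (11.62, 11.90 and 11.93) without overlap. HepG2 overlapped with U2OS (11.67, 11.89 and 11.85), and G361 (11.65, 11.65 and 11.59) lay below U2OS and above BJ without overlap. SRSF7 was thus ordered TK6, HepG2 and U2OS together, G361, BJ.

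SRSF3, the smallest SR protein and another export adaptor, had the same ends of the order. TK6 arrays read 12.10, 11.87 and 11.90 and BJ arrays 10.37, 10.42 and 10.34, with U2OS, HepG2 and G361 between them and overlapping with their neighbours in that order. The BJ difference was -1.21 (SE 0.12, adjusted p = 2.51e-13, limma). In G361 the replicate 1 arrays, with the low GAPDH ratio, held SRSF3 at 10.64 to 10.91 and the other 10 arrays at 11.18 to 11.50. The part of RNA quality in the G361 level was not tested.

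By its brightest probe set, 211784_s_at, SRSF1, the prototype of the family, was the exception in TK6 and was highest in U2OS. Its U2OS arrays lay 0.62 above the mean of the other lines (SE 0.09, adjusted p = 5.96e-08, limma) and did not overlap with HepG2, the next line. HepG2, TK6 and G361 overlapped with their neighbours in that order, and BJ lay 1.02 below the mean of the other lines (SE 0.09, adjusted p = 5.39e-15). The other SRSF1 probe sets were 0.32 (208863_s_at) to 0.85 (226419_s_at) higher in TK6 than in the other lines. Probe set 211784_s_at was called below them there (-0.51, adjusted p = 0.0162, limma diffSplice). In U2OS the other probe sets ran from -0.83 (227164_at) to 0.83 (226419_s_at). The exception in TK6 thus belongs to 211784_s_at. U2OS had 4 members called higher, SRSF1, SRSF3, SRSF5 and SRSF7, and 2 lower, SRSF6 and SRSF10, beside 30.8% and 25.1% of genes. Without replicate 3 of every group 3 members were called in U2OS.

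HepG2 had SRSF1, SRSF7 and SRSF10 higher and SRSF4 lower (-0.44, SE 0.09), beside 21.8% and 28.9% of genes, and 2 members were called without replicate 2 or without replicate 3. G361 had SRSF5 lower (-0.60, SE 0.10, adjusted p = 4.13e-07, limma), where 25.7% of genes were called lower, and 2 members were called without replicate 1. SRSF11, an SR-related protein of the spliceosome, was higher in TK6 (0.69, SE 0.13), while G361, BJ, HepG2 and U2OS overlapped with their neighbours in that order. SRSF4 was highest in TK6 and lowest in HepG2 and BJ, which overlapped.

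The direction for several members in U2OS and HepG2 depended on the probe set read. Probe set 208804_s_at of SRSF6 was 0.64 lower in U2OS than in the other lines, whereas 206108_s_at was 0.35 higher. The gap between them was 0.99 (SE 0.25, adjusted p = 8.20e-04, limma diffSplice). In U2OS SRSF10 was lower by 206095_s_at (-0.33) and 225348_at (-1.25). It was higher there by 204299_at (0.28), 210178_x_at (0.43) and 213594_x_at (0.64). SRSF3 and SRSF7, called higher in U2OS, were lower by 235324_at (-1.37) and 201129_at (-1.24). SRSF10 and SRSF1, called higher in HepG2, were lower by 204299_at (-0.67) and 226419_s_at (-1.05). A test of each probe set against the other probe sets of its gene called 20 of 32 member probe sets in U2OS, where 32.8% of 16491 probe sets were called. It called 8 in G361 (20.7% of probe sets called), 8 in HepG2 (18.5%), 11 in TK6 (28.8%) and 11 in BJ (29.8%). Without replicate 2 of every group the counts were 5 in G361, 5 in HepG2 and 7 in BJ, and without replicate 3 they were 3 in G361, 5 in HepG2, 5 in TK6 and 6 in BJ.

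In U2OS a probe set of each of SRSF1, SRSF3, SRSF7, SRSF10 and SRSF11 lay far below the rest of its gene. SRSF11 probe set 200685_at read 5.19, 4.76 and 4.73 in U2OS and 5.83 to 7.64 in the other lines, without overlap. Its difference from the other lines was 1.81 lower than that of the other SRSF11 probe sets (log2 -1.81, SE 0.21, adjusted p = 3.05e-13, limma diffSplice). The same measure was -1.62 for SRSF3 probe set 235324_at, -1.51 for SRSF10 probe set 225348_at and -1.48 for SRSF7 probe set 201129_at. For SRSF1 probe set 227164_at it was -1.19. Probe set 201129_at read 7.62, 7.75 and 7.998 in U2OS and 7.73 to 8.13 in BJ, below the 8.58 to 9.83 of the other 3 lines. Which transcript each probe set reads is not given in the files used here.

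After irradiation the family's called changes lay in TK6. At 6 h all 8 members were below their untreated controls in TK6, with a median log2 difference of -0.26 against 0.01 over all genes. Without SRSF7, whose values chose the family, it was 7 of 7 with a median of -0.26, and with any 1 of the 6 arrays also left out the median of the 7 lay between -0.31 and -0.18. SRSF3 and SRSF4 fell, 2 of the 7 members tested, where 2.23% of 14227 genes were called lower and 6.23% were called in either direction. At 3 h SRSF5 was the 1 member of 7 called, lower, where 2.11% of genes were called lower and 3.99% in either direction. The irradiated TK6 arrays held the p53 target list at 1.28 to 1.52 log2 and a G2 and mitosis list at -0.56 to -0.49 at 6 h, against -0.34 to -0.08 and -0.11 to 0.03 in untreated 6 h arrays, and the part of cell cycle position in the changes was not tested. These are bulk RNA values, in which fewer cells of a kind and less RNA per cell cannot be told apart.

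**Figure D2:**
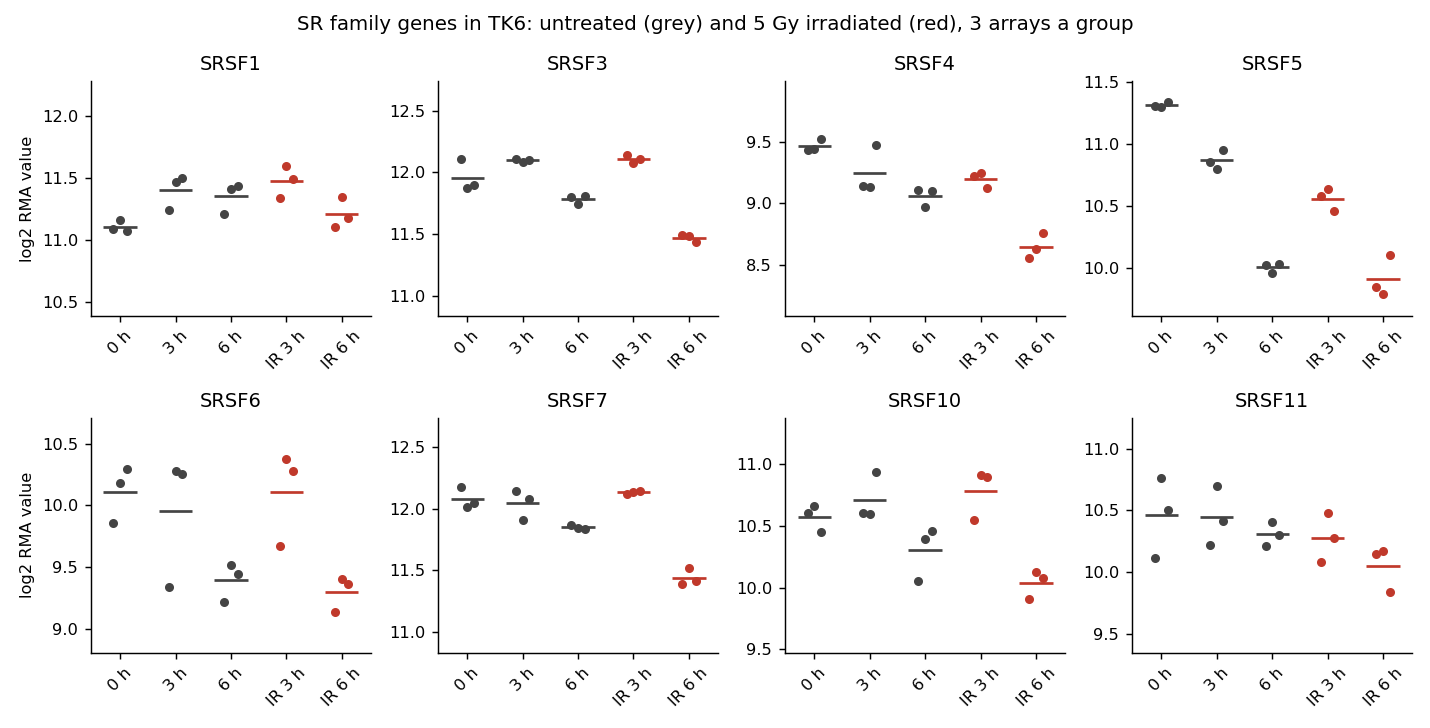
Log2 RMA values of the 8 SR genes in TK6, untreated at 0, 3 and 6 h (grey) and irradiated with 5 Gy at 3 and 6 h (red); points are arrays, bars are means of 3, and every panel spans the same log2 range. SRSF3, SRSF4 and SRSF7 are lower in irradiated than in untreated cells at 6 h without overlap, while SRSF5 falls with time in untreated cells.

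SRSF7 read 12.14, 11.91 and 12.08 in untreated TK6 cells at 3 h and 12.12, 12.13 and 12.14 in irradiated cells. At 6 h it read 11.87, 11.85 and 11.84 in untreated cells and 11.39, 11.52 and 11.41 in irradiated cells. The groups overlapped at 3 h and not at 6 h. The log2 difference was 0.09 (SE 0.07) at 3 h and -0.41 (SE 0.07) at 6 h, and the change between them was -0.50 (SE 0.10). These values chose the family and have no test. With the mean of all SRSF7 probe sets the 3 differences were -0.05, -0.25 and -0.20, so the sign at 3 h depends on the probe sets used.

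SRSF3 moved at the same times as SRSF7. It read 11.80, 11.74 and 11.81 in untreated TK6 cells at 6 h and 11.49, 11.49 and 11.44 in irradiated cells, without overlap. The difference was -0.31 (SE 0.06, 1.24-fold lower, adjusted p = 0.00524, limma), and at 3 h it was 0.01 (SE 0.06). The call held without any 1 of the 15 TK6 arrays. Adjusted p was 0.0809 with the mean of all SRSF3 probe sets and 0.353 in 1 fit of all 75 arrays, the highest of the alternative settings, of which the lowest was 0.000304. Over all 5 probe sets of SRSF3 kept in TK6 the 6 h differences ran from -0.55 (208673_s_at) to -0.15 (232392_at).

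SRSF4 read 9.11, 8.97 and 9.10 in untreated TK6 cells at 6 h and 8.56, 8.63 and 8.76 in irradiated cells, without overlap. This gene encodes an SR protein with a long arginine and serine tail. The difference was -0.41 (SE 0.10, 1.33-fold lower, adjusted p = 0.0173, limma). It rests on probe set 201696_at, since the other probe sets kept moved by 0.01 (239512_at) and -0.06 (242837_at), and the mean of all SRSF4 probe sets gave 0.05. The call was lost without untreated 6 h replicate 1 or 3 and without irradiated 6 h replicate 1 or 2, with adjusted p up to 0.0898 (lowest without an array 0.00826).

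The other members of the family had no call at 6 h in TK6. SRSF10, which represses splicing when it is dephosphorylated in mitosis and heat shock, differed by -0.26 (95% interval -0.52 to -0.0010, adjusted p = 0.286, limma) and SRSF11 by -0.26 (-0.57 to 0.06). SRSF11 did not overlap between the groups, and neither did 10.6% of genes in the same direction. SRSF1 differed by -0.14 (-0.34 to 0.05), SRSF6 by -0.09 (-0.53 to 0.35) and SRSF5 by -0.09 (-0.27 to 0.08). The intervals of SRSF1, SRSF6, SRSF10 and SRSF11 include a difference of -0.31, the value of SRSF3, and that of SRSF5 does not.

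SRSF5 read 10.85, 10.80 and 10.95 in untreated TK6 cells at 3 h and 10.58, 10.63 and 10.46 in irradiated cells, without overlap. The difference was -0.31 (SE 0.08, adjusted p = 0.0446, limma). The call was lost without 11 of the 15 arrays in turn and kept without untreated 0 h replicate 1 or without 1 of the irradiated 6 h arrays, with adjusted p from 0.0181 to 0.211. It was also lost with no filter on low values, with the mean of all probe sets, with the 6 arrays compared alone and in the fit of all 75 arrays. With the replicate number as a block, which paired these arrays, the call was kept (adjusted p = 0.00969, limma). There 8.46% of genes were called.

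In the other lines no member was called after irradiation. Limma called 0 of 8 members at either time in G361, HepG2, U2OS and BJ, while at an unadjusted p under 0.05 it gave 0 and 1 in G361, 1 and 4 in HepG2, 0 and 0 in U2OS and 0 and 1 in BJ at 3 h and 6 h. All genes gave 106 and 226 of 14487 at that threshold in G361 and 809 and 917 of 14369 in HepG2. They gave 601 and 604 of 14654 in U2OS and 298 and 855 of 14467 in BJ. By adjusted p, 0% and 0% of all genes were called in G361, 0% and 0.00696% in HepG2, 0.0887% and 0.641% in U2OS, and 0.18% and 0.235% in BJ. A test of whether the irradiation effect differed between the 5 lines called 0 of 7 members at 3 h (1.34% of 16027 genes called) and 0 of 7 at 6 h (1.83%), and 0 of the 7 had an unadjusted p under 0.05. Of all 16027 genes, 1010 at 3 h and 1079 at 6 h had one. A call in TK6 beside none elsewhere is thus not shown to be a difference between lines.

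**Figure D3:**
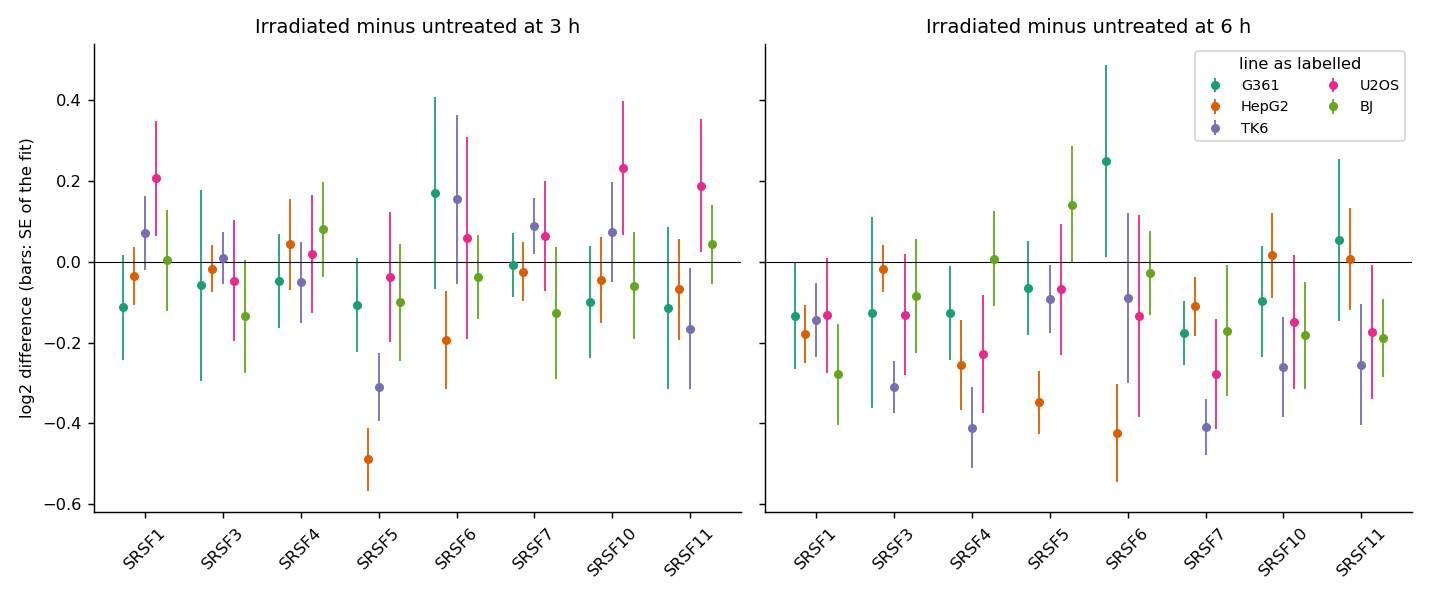
Log2 difference of irradiated minus untreated cells at 3 h (left) and 6 h (right) for the 8 SR genes in the 5 lines; points are differences of 3 arrays against 3 and bars are the SE of the fit of that line. At 6 h SRSF7 is below 0 in the 4 lines other than TK6, from -0.28 in U2OS to -0.11 in HepG2. Its TK6 value, -0.41, is among those that chose the family.

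SRSF7 at 6 h was below its control in each line. In U2OS it read 11.90, 11.63 and 11.70 in untreated and 11.43, 11.46 and 11.49 in irradiated cells, a difference of -0.28 (SE 0.14, 95% interval -0.56 to 0.01). In G361 it read 11.51, 11.57 and 11.48 against 11.39, 11.33 and 11.31, a difference of -0.18 (SE 0.08). Neither pair of groups overlapped, as for 6.93% of genes in U2OS and 2.89% in G361 in this direction, and neither difference was called (adjusted p = 0.9997 and 0.9999, limma). HepG2 (-0.11, SE 0.07) and BJ (-0.17, SE 0.16) overlapped.

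In U2OS, too, all 8 members lay below their controls at 6 h, from -0.28 to -0.07 with a median of -0.14, against 0.00 over all genes. SRSF4 differed there by -0.23 (SE 0.15) without overlap, from 9.15, 8.99 and 8.99 to 8.80, 8.75 and 8.90. Without irradiated 6 h replicate 1 it was 7 of the 8, since SRSF6 was then not below its control. All 8 were also lower in untreated U2OS cells at 6 h than at 0 h, with a median of -0.08. Medians of similar size were found after irradiation at 6 h in G361 (-0.11), HepG2 (-0.14) and BJ (-0.13). In each of those lines 6 of the 8 members were below their controls.

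SRSF5 had the largest irradiation difference of any member in any line. In HepG2 it read 10.44, 10.54 and 10.52 in untreated and 10.13, 10.01 and 9.91 in irradiated cells at 3 h, and 10.40, 10.40 and 10.34 against 10.18, 9.98 and 9.93 at 6 h. The groups did not overlap at either time, as for 8.23% and 7.02% of genes in this direction. The differences were -0.49 (SE 0.08, adjusted p = 0.0675, limma) and -0.35 (SE 0.08, adjusted p = 0.146). With the replicate number as a block SRSF5 was called at 6 h (adjusted p = 0.0276; 0.39% of genes called; up to 0.833 under the other settings), where the numbers paired the arrays. SRSF6 (-0.42, SE 0.12, adjusted p = 0.301) and SRSF1 (-0.18, SE 0.07, adjusted p = 0.633) did not overlap at 6 h either. At 3 h SRSF5 was called without untreated 0 h, irradiated 3 h or irradiated 6 h replicate 1, with adjusted p from 0.0276 to 0.765 over the arrays left out. The HepG2 labels carry the doubt given above.

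Over untreated time in TK6, SRSF5 fell at both times and SRSF4 at 6 h. SRSF5 read 11.31, 11.30 and 11.34 at 0 h, 10.85, 10.80 and 10.95 at 3 h, and 10.02, 9.96 and 10.03 at 6 h. The 3 times did not overlap. The fall was -0.45 at 3 h (SE 0.08, adjusted p = 0.0104, limma) and -1.32 at 6 h (SE 0.08, 2.49-fold lower, adjusted p = 5.32e-08). The 3 h call was lost without 0 h replicate 2 or 3 or 3 h replicate 2 (adjusted p 0.00592 to 0.0601 over the arrays left out), and the 6 h call was kept without any 1 array. These comparisons share the untreated 3 h and 6 h arrays with the irradiation comparisons.

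**Figure D4:**
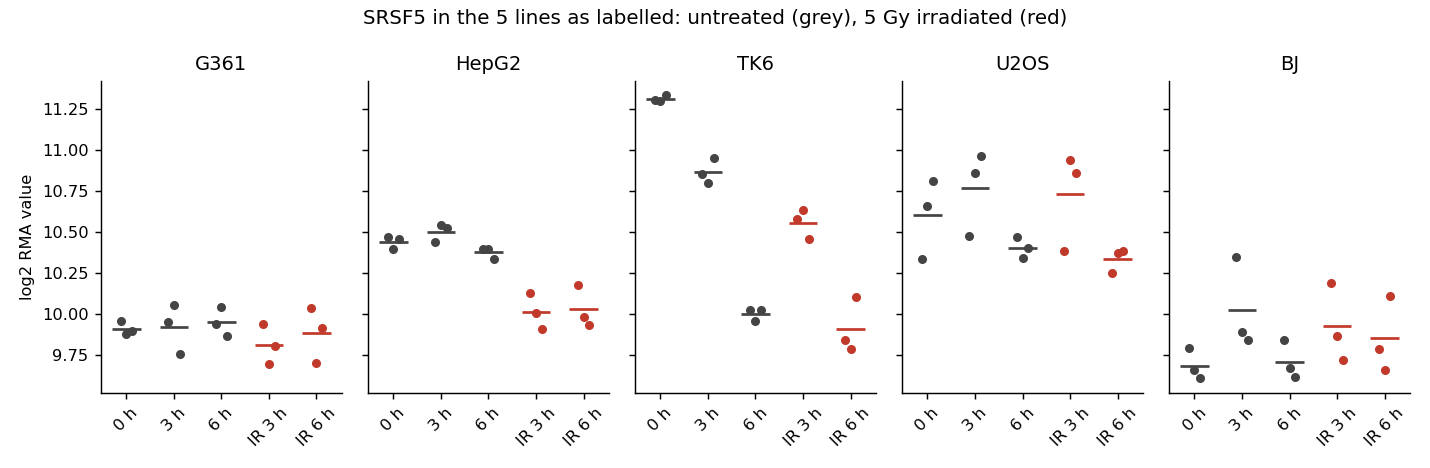
Log2 RMA values of SRSF5 in the 5 lines as labelled, untreated at 0, 3 and 6 h (grey) and irradiated with 5 Gy at 3 and 6 h (red); points are arrays and bars are means of 3. The untreated TK6 arrays lie at 11.30 to 11.34 at 0 h and at 9.96 to 10.03 at 6 h.

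The other lines did not share this fall. The untreated 6 h minus 0 h difference of SRSF5 was 0.04 in G361, -0.06 in HepG2, -0.20 in U2OS and 0.02 in BJ, with none called. A test of the difference between the 5 lines called SRSF5 at 6 h (adjusted p = 2.30e-07, limma F test), the 1 member of 8, where 1.18% of genes were called. At 3 h it called 0 of 8, where 0.749% of genes were, and 2 members, SRSF1 and SRSF5, had an unadjusted p under 0.05, as had 1858 of 16027 genes. TK6 differed from the mean of the other 4 lines by -1.27 (SE 0.14, adjusted p = 3.52e-09) at 6 h and by -0.59 (SE 0.14, adjusted p = 0.0134) at 3 h. This test of the untreated changes was added after the data were seen. Its 8 members include SRSF7, which was not called and whose untreated TK6 values are among those that chose the family.

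SRSF6, a close relative of SRSF5, read 9.86, 10.18 and 10.29 in untreated TK6 at 0 h and 9.22, 9.52 and 9.45 at 6 h, without overlap. Its difference was -0.72 (SE 0.21, adjusted p = 0.0566, limma), and it was -0.85 from the mean change of the other lines (SE 0.24, adjusted p = 0.0338). That mean includes a rise of 0.54 in HepG2, whose labels are in doubt. The test of the difference between the 5 lines did not call SRSF6 (adjusted p = 0.155, limma F test). SRSF4 fell by 0.41 on the log2 scale at 6 h (SE 0.10, adjusted p = 0.0249), from 9.43, 9.44 and 9.52 to 9.11, 8.97 and 9.10. The SRSF4 call was lost without 0 h replicate 2 or 3 or 6 h replicate 2 or 3, with adjusted p up to 0.111 (lowest without an array 0.0148).

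In all, 2 of 8 members were called lower at 6 h and 0 higher in untreated TK6, where 3.35% and 1.81% of genes were called (5.16% in all). At 3 h 1 was called lower, where 1.08% of genes were (1.81% in all). SRSF7 is among the 8 and was called at neither time, so without it the 6 h count was 2 of 7. With the replicate number as a block, which paired the arrays at 6 h, 6 members passed the threshold at 6 h (12.9% of genes called). One is SRSF7 (-0.23), whose untreated 6 h arrays are among those that chose the family, so its value is a description here. Of the other 7, 5 were called, SRSF1 higher by 0.25 and SRSF3, SRSF4, SRSF5 and SRSF6 lower. Without the block, the 6 h count was 4 when untreated 3 h replicate 1 or 2 was left out and 1 when 0 h replicate 2 or 3 or 6 h replicate 2 or 3 was. The 3 h count was 2 when untreated 3 h replicate 1 was left out. Replicate 1 read the lowest SRSF6 value in each of the 5 TK6 groups, 9.14 to 9.86. In the other lines limma called 0 of 8 members over untreated time, apart from SRSF6 in HepG2 at 6 h, where 0% of genes were called in G361, in U2OS and in HepG2 at 3 h, and 0.0138% and 0.00691% in BJ at 3 h and 6 h. At an unadjusted p under 0.05 it gave 0 and 1 members in G361, 1 in HepG2 at 3 h, 1 and 0 in U2OS and 1 and 0 in BJ. All genes gave 291 and 282 of 14487 at that threshold in G361 and 1490 of 14369 in HepG2 at 3 h. They gave 888 and 118 of 14654 in U2OS and 805 and 1061 of 14467 in BJ.

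SRSF6 rose in untreated HepG2 cells, from 9.29, 9.79 and 9.51 at 0 h to 10.23, 10.01 and 9.98 at 6 h, without overlap. The difference was 0.54 (SE 0.12, adjusted p = 0.0464, limma), the 1 member called, where 0.508% of genes were called higher and 0.64% in all. The call was lost without 11 of the 15 HepG2 arrays in turn and kept without untreated 0 h replicate 2, untreated 3 h replicate 1 or 2, or irradiated 3 h replicate 1 (adjusted p 0.00780 to 0.210). The untreated 6 h arrays are those with the raised p53 target list, whose part was not tested.

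Probe sets of 1 gene moved apart in untreated TK6 cells. After irradiation 0 of 29 tested member probe sets in TK6 and 0 of 32 or 33 in each other line differed from the rest of their gene at either time (limma diffSplice; 0.267% of TK6 probe sets called at 6 h and 0.241% at 3 h; lowest adjusted p of a member 0.525). The 4 SRSF7 probe sets were not tested there. At most 2 member probe sets a line and time had an unadjusted p under 0.05. Over all probe sets that number ran from 116 of 19680 (G361 at 3 h) to 987 of 19501 (TK6 at 6 h). By adjusted p, 0% of all probe sets were called in G361 and HepG2, 0.00509% and 0% in U2OS and 0.0353% and 0.00504% in BJ. In untreated TK6, 3 of 33 were called at 3 h (0.415% of probe sets) and 6 at 6 h (0.959%). The 33 include the 4 SRSF7 probe sets, of which 0 were called, and untreated TK6 values of SRSF7 are among those that chose the family. In the other 4 lines 0 member probe sets were called over untreated time, with a lowest adjusted p of 0.747 and at most 3 at an unadjusted p under 0.05, where 0.0456% of probe sets were called in HepG2 at 6 h and 0% otherwise. Over all probe sets the unadjusted number there ran from 161 of 19660 (U2OS at 6 h) to 1058 of 19747 (HepG2 at 6 h). This comparison was also added after the data were seen.

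**Figure D5:**
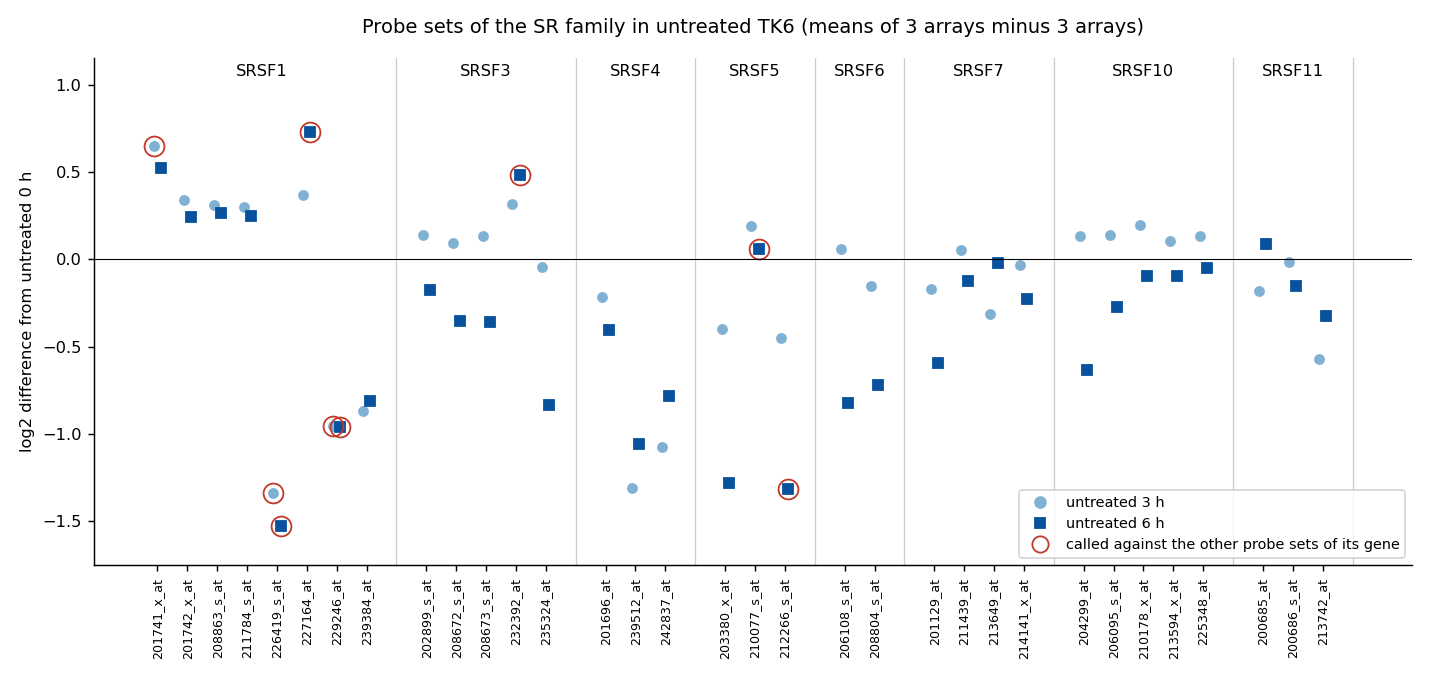
Log2 difference from untreated 0 h of each kept probe set of the 8 SR genes in untreated TK6 at 3 h (light circles) and 6 h (dark squares), each from 3 arrays against 3; red rings mark probe sets called against the other probe sets of their gene. SRSF1 probe sets spread from -1.53 (226419_s_at) to 0.73 (227164_at) at 6 h, and SRSF7 and SRSF10 hold no ring.

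SRSF1 spread the widest. Its probe set 226419_s_at read 6.95, 7.81 and 7.26 at 0 h, 5.94, 5.77 and 6.29 at 3 h, and 5.67, 5.75 and 6.02 at 6 h, so 0 h did not overlap with the later times. Its own change at 6 h was -1.53, which is -1.56 from that of the other SRSF1 probe sets (SE 0.23, adjusted p = 2.46e-06, limma diffSplice). Probe set 227164_at went the other way, from 7.20, 7.65 and 7.63 to 8.21, 8.20 and 8.26, and stood above the rest (gap 1.02, adjusted p = 0.00549). Probe set 229246_at fell with the first, by 0.96 on the log2 scale. The probe set that stands for SRSF1, 211784_s_at, rose from 11.09, 11.16 and 11.07 to 11.21, 11.41 and 11.44, a difference of 0.25 that was called only with the block.

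After irradiation at 6 h, 227164_at read 7.46, 7.67 and 7.44 against 8.21, 8.20 and 8.26 in untreated cells. That difference of -0.70 was -0.59 from the rest of SRSF1 and was not called (adjusted p = 0.525, limma diffSplice). The 2 lowered probe sets read 4.97 to 5.74 (226419_s_at) and 4.39 to 4.66 (229246_at) in these arrays.

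In SRSF5 the probe sets 212266_s_at and 203380_x_at fell together, by 1.32 and, from 10.52 to 10.66 at 0 h to 9.27 to 9.40 at 6 h, by 1.28 on the log2 scale. Probe set 210077_s_at read 3.56 to 4.23 at 0 h and 6 h, close to the TK6 level limit of 3.52 under which probe sets were left out, and was called for its gap to the others (1.36, SE 0.17, adjusted p = 4.34e-06, limma diffSplice). In SRSF3, 232392_at rose against its gene by 0.91 (SE 0.20, adjusted p = 0.00748), although its 3 values at 6 h ran from 7.20 to 8.24. Without replicate 3 of every group 0 of the 3 h calls and 2 of the 6 h calls were left, and without replicate 2, 1 and 2. The 226419_s_at call was kept at 6 h without any 1 replicate and lost at 3 h without replicate 3 (adjusted p 0.0879, over replicates left out 0.00104 to 0.0879).

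Among kinases and partners of the family a few genes were called, beside 6.23% of all genes (2.23% lower). In TK6 at 6 h after irradiation 1 of 10 SR kinase and transport genes tested fell, SRPK1 (-0.35, SE 0.10, adjusted p = 0.0419, limma), which phosphorylates SR proteins in the cytoplasm. Of 21 other SR and SR-related genes 2 fell, BCLAF1 (-0.37) and the splicing coactivator SRRM1 (-0.39). Of 21 hnRNP genes, whose proteins often oppose SR proteins on exons, SYNCRIP (-0.72) and HNRNPDL (-0.46) fell and PTBP3 rose (0.57). Of 9 nonsense-mediated decay and exon junction genes 0 were called. The list medians were 0.03, -0.08, -0.12 and -0.04 against 0.01 over all genes. At 3 h limma called 0 genes of these 4 lists, beside 3.99% of all genes.

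Over untreated time in TK6 the kinase CLK1, which phosphorylates SR proteins in the nucleus, rose by 0.71 at 6 h (SE 0.17, adjusted p = 0.0231, limma), and it rose by 0.76 at 6 h in untreated HepG2 (SE 0.13, adjusted p = 0.00547), where 0.508% of genes were called higher. Those HepG2 6 h arrays are the ones with the p53 target list at 0.80 to 0.85, whose part was not tested. LUC7L, a partner of the U1 particle, rose by 0.57 at 3 h and 0.82 at 6 h in TK6, and LUC7L2 by 0.47 at 3 h. RBM39 (-0.53), HNRNPA1 (-0.47) and the decay factor UPF2 (-0.45) fell at 6 h. These were 1 of 10 kinase and transport genes, 2 of 21 SR-related genes at either time, 1 of 21 hnRNP genes and 1 of 9 decay genes, beside 1.81% of all genes at 3 h and 5.16% at 6 h. These lists are small, and nothing particular to them follows from such counts.

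The genes most like SRSF7 over the 75 arrays, after removal of each line's mean, were PUS1 (Pearson r 0.76), UHRF1 (0.73), TRA2B (0.71), SRSF10 (0.68) and PPM1F (0.68), of 12969 genes. TRA2B is an SR-related splicing activator, PUS1 a pseudouridine synthase, UHRF1 a factor that maintains DNA methylation and PPM1F a phosphatase. The least like were TSPAN11 (-0.59), CASTOR3P (-0.57) and ADAM22 (-0.54). Among the members SRSF3 (0.63) and SRSF4 (0.61) followed SRSF10, and SRSF11 (0.22) was lowest. This order depended on the TK6 arrays, which hold the SRSF7 values that chose the family. In the 15 TK6 arrays alone r was 0.95 for SRSF3, 0.86 for SRSF4, 0.84 for SRSF10 and 0.27 for SRSF1. In the other 60 arrays SRSF1 (0.72) was the highest member, ahead of SRSF10 (0.59), SRSF3 (0.48) and SRSF4 (0.42). The arrays share their groups and normalization, so these values are a description.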

How the data were processed

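Array values of 75 samples were deposited by the authors on the log2 scale, and RMA is the tool that the submitters' processing notes name. Its version, and whether all lines were normalized in 1 run, are not given in the sources used here. Probe sets with 1 symbol in the platform table were kept (41097), those with several (1801) left out. Members and lists were chosen with earlier results of these data known. The genes named are all members, at most 4 called genes of each list per time, and the genes most and least like SRSF7.

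For each line limma 3.58.1 (R 4.3.3) fitted 5 group means to 15 arrays (eBayes with trend), over genes with a mean in that line that exceeded the line's level limit (percentile 40 of the array's probe set means), which all 8 members passed in every line. Calls needed a Benjamini-Hochberg adjusted p under 0.05. Differences between lines and 0 h levels came from 1 fit of 75 arrays with 16027 genes, and probe sets within genes from diffSplice. The fits were tested on simulated data. Replicate numbers were taken to pair arrays where all 3 correlations of deviations from group means passed 0.1. For irradiation this held except in HepG2 at 3 h and BJ at 6 h, and for untreated 6 h against 0 h only in TK6. The number of arrays, 3 a group, limits the precision. Alternatives were the level filter, quantile normalization, the mean of all probe sets, the replicate block, the arrays fitted and leaving out arrays.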

Additional observations from a re-analysis of the deposited data

Results flagged for a closer look

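The change of SRSF5 between untreated 0 h and untreated 6 h differed between the 5 lines (adjusted p = 2.30e-07, limma F test over all 75 arrays). It was -1.32 in TK6 and between -0.20 and 0.04 in the other 4 lines, and all 3 TK6 arrays at 6 h lay below all 3 at 0 h.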

How the results depend on the processing

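Of 231 counts under other settings, 208 stayed within 1.5 times the reported count, as did 405 of 462 counts with arrays left out. Most of the 58 reported counts were 0, and a 0 that stayed 0 was taken as unchanged, so these totals say little about the calls. The 1 call in TK6 irradiated at 3 h, for example, changed in 11 of 15 fits with an array left out and in 4 of 6 other settings. With the mean of all probe sets, members called became 0 for HepG2 untreated 6 h, 0 for TK6 irradiated 3 h, 0 for TK6 irradiated 6 h, 0 for TK6 untreated 3 h, and at baseline 4 in G361, 2 in HepG2 and 3 in U2OS. SRSF7 after irradiation at 3 h reversed to -0.049 and SRSF4 at 6 h to 0.046 in TK6. Quantile normalization gave 0 for HepG2 untreated 6 h, 1 for the difference between lines in untreated 3 h cells and 3 for G361 baseline. The fit of all 75 arrays gave 0 for HepG2 untreated 6 h, 0 for TK6 irradiated 3 h and 1 for TK6 irradiated 6 h. TK6 irradiated 3 h also gave 0 with no level filter and with the 6 arrays alone. In these cases the cause was not tested, and the shares of all genes called are not given here.

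With the replicate number as a block, members called were 1 for HepG2 irradiated 3 h (0.0418% of genes called) and 1 for 6 h (0.39%). For TK6 untreated 3 h they were 2 (6.99% of genes, against 1.81% without the block). For TK6 untreated 6 h they were 6 (12.9%, against 5.16%), or 5 of 7 without SRSF7. For the difference between lines they were 2 at untreated 3 h and 2 at 6 h, and the share of genes with the block is not given here. Member probe sets called in untreated TK6 were 5 at 3 h and 10 at 6 h. The share of all probe sets called with the block is not given here, so these counts are not read as a result about the members. The block moved no other count of members or member probe sets by over 1.5 times. Numbers did not pair the arrays for HepG2 irradiated 3 h or TK6 untreated 3 h.

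With arrays left out, counts ranged from 0 to 1 for HepG2 irradiated 3 h, 0 to 1 for HepG2 untreated 6 h, 0 to 1 for TK6 irradiated 3 h, 1 to 2 for TK6 irradiated 6 h, 0 to 2 for TK6 untreated 3 h and 1 to 4 for 6 h. They ranged from 0 to 1 and 1 to 2 for the difference between lines in untreated cells at 3 h and 6 h, and at baseline from 1 to 2 in G361, 2 to 5 in HepG2 and 3 to 7 in U2OS. Probe set counts ranged from 0 to 1 for HepG2 irradiated 3 h, 0 to 4 and 2 to 6 for untreated TK6 at 3 h and 6 h, and at baseline from 3 to 9 in G361, 5 to 11 in HepG2, 5 to 13 in TK6 and 6 to 12 in BJ. Shares of all genes or probe sets called with arrays left out are not given here. The fall of SRSF5 in untreated TK6 at 6 h kept its call under each of these settings, between -1.33 and -0.85.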
